A study of Mus musculus with 8 samples.

Results

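The 38 genes described here encode the enzymes and transporters of glycolysis and the oxygen-sensing pathway that controls many of them. Members were chosen by name, and each was read through the Affymetrix mouse array probe sets annotated with that gene alone, taking the probe set with the highest mean over the 8 arrays. Probe sets of this kind were found for 36 of the 38 genes. Gpi1 and Eno1, which encode glucose-6-phosphate isomerase and the ubiquitous enolase, had none and were not analysed here. Gapdh was read only by control probe sets, which were not tested. Hk3, Aldoc and Pdk2 lay below the signal filter, which left 32 tested members among the 10600 genes tested on these arrays.

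The arrays measured RNA of haematopoietic stem cells sorted from mouse fetal liver as Sca-1+, Lin-, AA4.1+, c-Kit++ cells. Embryos were wild type or Crebbp+/-, both on a C57BL/6 background, and the labels name no treatment. Their age is given as 14.5 days post coitum in one field and as 14 in another. Each numbered sample combined 15 embryos, each genotype had 2 numbered samples (1 and 2), and each sample was hybridised to 2 arrays from 12 ng of amplified total RNA. The labels do not say which part of Crebbp was deleted or whether the sample numbers mark separate litters. Its probe set (wild type 11.74 ± 0.46, SD, n = 2; Crebbp+/- 11.81 ± 0.21, log2 signal) therefore checks no genotype, and limma p-values measure the spread between these preparations. The question put to these genes was whether their RNA levels differ between stem cells with 1 and with both working copies of Crebbp.

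Glycolysis splits glucose into pyruvate, which is either reduced to lactate by lactate dehydrogenase or passed to the mitochondria through pyruvate dehydrogenase. Blood-forming stem cells of adult bone marrow are known for their reliance on glycolysis and for stabilising the hypoxia-inducible factor HIF. Neither was measured in the fetal liver cells used here. HIF is a dimer of an oxygen-regulated alpha subunit (encoded by Hif1a or Epas1) and a constant partner (encoded by Arnt). When oxygen is present, prolyl hydroxylases of the Egln family mark the alpha subunit for destruction by the von Hippel-Lindau protein, encoded by Vhl. When it is scarce, HIF binds DNA at a short core motif and recruits coactivators, among them CBP, the acetyltransferase that Crebbp encodes.

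Values are GCRMA log2 signals, so a difference of 1 is a doubling of signal, and differences are Crebbp+/- minus wild type. Each sample value is the mean of its 2 arrays. The median over all probe sets was between 2.65 and 2.70 on every array, and probe sets with a mean above 2.72 were tested. Signals of different probe sets depend on their probes as well as on RNA amount, so an order of signals is no order of transcripts. No probe set of any gene passed limma with Benjamini-Hochberg adjustment at 0.05 (0 of 22518, 0%). The lowest adjusted p was 0.991, and members had adjusted p of 0.991 to 1. At an unadjusted p under 0.05, 1.39% of tested genes were higher and 1.28% lower in Crebbp+/-, and among members 0 were higher and 0 lower. That count became 1 in 5 fits that left out a sample or an array. The member was Ldhb without wild-type sample 1, without array 2 of wild-type sample 1, without array 2 of Crebbp+/- sample 1 or without array 1 of Crebbp+/- sample 2. It was Egln1 without array 2 of Crebbp+/- sample 2.

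Marker genes of the sorted cells were present, with 11 of 11 matched stem and progenitor markers above the filter and Kit at 9.36 and 9.05 in wild type and 9.34 and 9.31 in Crebbp+/-. At an unadjusted p under 0.05 in limma, 0 of these markers were higher and 3 of 11 lower in Crebbp+/- (all genes 1.39% and 1.28%). The 3 were Meis1 (-1.26), Hlf (-0.54) and Mecom (-0.38), each with an adjusted p of 0.991. Procr differed by -0.81, with all 4 Crebbp+/- arrays below all 4 wild-type arrays, as for 1.99% of all tested genes. On average 6 of the 11 markers were higher and 5 lower in Crebbp+/-, with a median difference of 0.004. Several marker lists of other cells differed between samples. Hepatocyte markers, 5 of 6 matched genes above the filter, summed on the linear scale to 53 in sample 1 and 885 in sample 2 of wild type, and to 314 and 463 in Crebbp+/-, with Fgb below the filter. Immediate early genes, which respond to cell handling, summed to 14375 and 20925 in wild type and to 10649 and 19930 in Crebbp+/-, with all 9 lower on average in Crebbp+/- and a median difference of -0.24. Macrophage markers, 5 of 8 above the filter with Adgre1, C1qa and Marco below it, summed to 1744 and 2515, and to 1225 and 2489. Megakaryocyte markers, 4 of 6 above the filter, summed to 162 and 170 in wild type and to 76 and 96 in Crebbp+/-. Granulocyte, endothelial and stem cell sums were 9490 to 10406, 639 to 714 and 16859 to 19196, and of the erythroid markers Slc4a1 alone was above the filter. The Gapdh control probe sets, a measure of RNA integrity, differed between samples as well. For samples numbered 1 the 5' minus 3' difference was -1.22 in wild type against -0.89 in Crebbp+/-. For samples numbered 2 it was -2.59 against -1.88. Across numbers the genotypes overlapped in this measure, and no test was run on it. The part of stem cell makeup, other cells, handling and RNA integrity in the genotype differences below was not tested. In a sorted population, fewer cells of a type and less RNA per cell cannot be told apart.

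Among the glucose and lactate carriers, the genotype means of Slc2a1, Slc2a3 and Slc16a1 differed by 0.07 or less. Slc2a1, the basal glucose transporter GLUT1, had 12.31 in sample 1 and 11.91 in sample 2 of wild type, and 12.21 and 12.01 in the same order in Crebbp+/-. Samples of the genotypes overlapped, and the difference of 0.005 (SE 0.18) had a 95% interval from -0.47 to 0.48. Slc2a3, the high-affinity glucose transporter GLUT3, had 11.45 and 10.68 in wild type and 11.46 and 10.67 in Crebbp+/-. Its samples separated by number and not by genotype, with a genotype difference of 0.0002 (SE 0.38).

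Slc16a1, which carries lactate and pyruvate across the plasma membrane, had 12.20 and 12.19 in wild type and 12.27 and 12.27 in Crebbp+/-. Both Crebbp+/- samples lay above both wild-type samples, by 0.07 (SE 0.11; 95% interval -0.22 to 0.36). Slc16a3, the lactate exporter of strongly glycolytic cells, had 7.39 and 6.96 in wild type and 6.78 and 7.10 in Crebbp+/-. It differed by -0.61 between samples numbered 1 and by 0.14 between samples numbered 2. The positive difference rested on 1 array of wild-type sample 2. The arrays of that sample read 7.69 and 6.22, and those of Crebbp+/- sample 2 read 7.11 and 7.09. Of the 4 transporters, 3 were higher and 1 lower on average, where 56.9% of all tested genes were higher, and none passed.

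**Figure D1:**
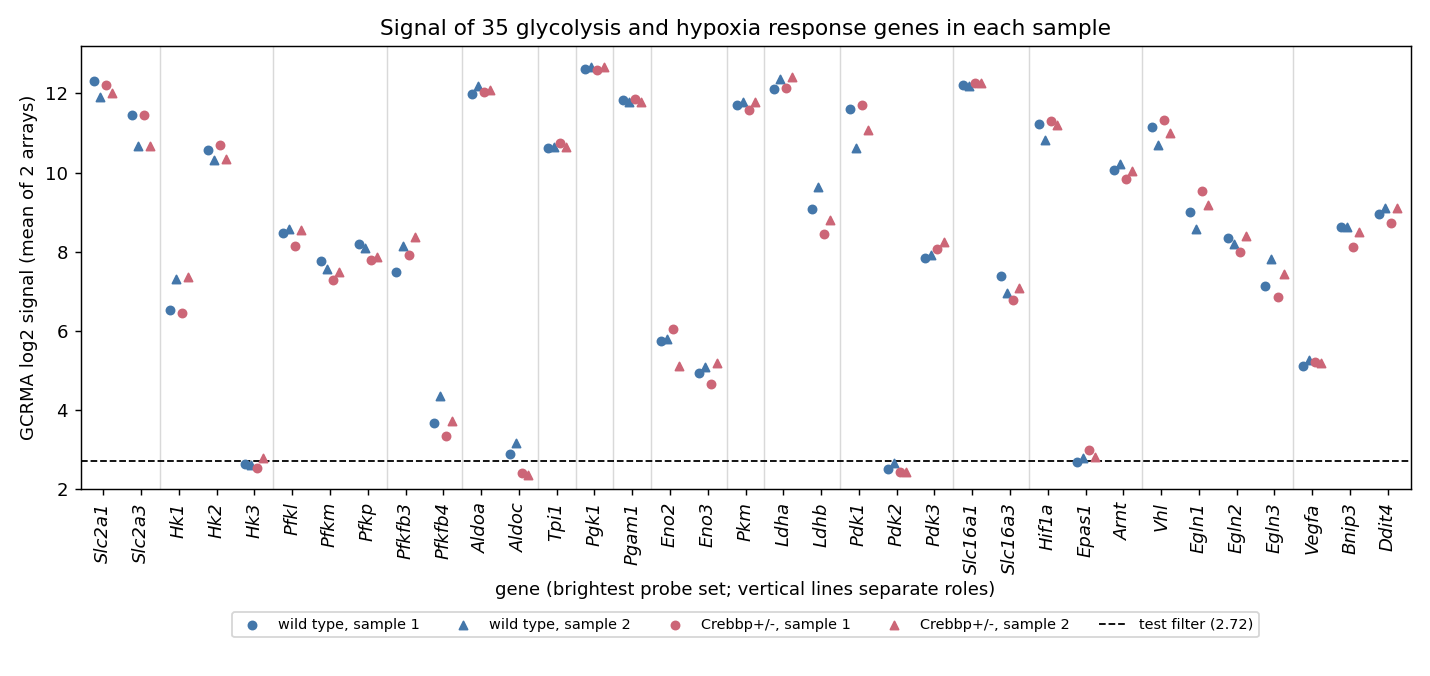
GCRMA log2 signal (vertical axis, mean of 2 arrays) of the 35 members with a probe set that is not a control, by gene (horizontal axis), with circles for samples numbered 1, triangles for samples numbered 2, blue for wild type and red for Crebbp+/-. The dashed line marks the filter of 2.72, below which Hk3, Aldoc and Pdk2 lie on average and near which Epas1 lies.

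For the first committed steps of glycolysis, both common hexokinases and all 3 phosphofructokinase genes were above background. Hk2, the inducible hexokinase, had 10.58 and 10.32 in wild type and 10.69 and 10.35 in Crebbp+/-, a difference of 0.07 (SE 0.20). Hk1, the housekeeping hexokinase, had 6.54 and 7.31 in wild type and 6.45 and 7.37 in Crebbp+/-. Sample number separated the Hk1 values and genotype did not, the genotype difference being -0.02 (SE 0.46). Hk3 averaged 2.63 ± 0.01 in wild type and 2.67 ± 0.17 in Crebbp+/-, at the background of the normalization.

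Phosphofructokinase, the main control point of the pathway, had the lowest differences among the tested glycolytic enzymes. Pfkp, the platelet-type subunit, had 8.21 and 8.10 in wild type and 7.80 and 7.87 in Crebbp+/-. Its samples did not overlap between genotypes, although its arrays did, at 7.87 to 8.34 against 7.63 to 7.98. The difference of -0.32 (SE 0.23) had an interval from -0.91 to 0.27.

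Pfkm, the muscle-type subunit, had 7.76 and 7.57 in wild type and 7.30 and 7.48 in Crebbp+/-, again without overlap between samples. It differed by -0.28 (SE 0.25). Its arrays overlapped, at 7.29 to 8.24 in wild type against 7.28 to 7.50 in Crebbp+/-. The arrays of wild-type sample 1 read 8.24 and 7.29, and without the higher the Pfkm difference was -0.04. Pfkl, the liver-type subunit, had 8.48 and 8.59 in wild type and 8.14 and 8.56 in Crebbp+/-, with overlap, and differed by -0.18 (SE 0.25). All 5 tested probe sets of the 3 genes were lower in Crebbp+/- within both sample numbers, and none passed the adjusted test. Across all tested genes, 24.7% were lower within both numbers.

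The bifunctional enzymes that make or remove fructose 2,6-bisphosphate, the activator of phosphofructokinase, differed in opposite directions. Pfkfb3, the isoform with the strongest kinase activity, had 7.50 and 8.14 in wild type and 7.91 and 8.38 in Crebbp+/-, a difference of 0.32 (SE 0.34). Pfkfb4 had 3.68 and 4.36 in wild type and 3.34 and 3.72 in Crebbp+/-, a difference of -0.48 (SE 0.33). Samples of the genotypes overlapped for both genes. Within each sample number Pfkfb3 was higher in Crebbp+/-, by 0.41 and 0.24, and Pfkfb4 was lower, by -0.34 and -0.63.

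In the later steps of glycolysis, the genotype means of Aldoa, Tpi1, Pgk1, Pgam1 and Pkm differed by 0.07 or less in either direction. Aldoa, the aldolase of most tissues, had 11.98 and 12.19 in wild type and 12.03 and 12.10 in Crebbp+/-, while the brain isoform Aldoc averaged 3.02 ± 0.20 and 2.39 ± 0.03. The Aldoc mean in wild type rested on 1 array in each sample, at 3.39 and 3.95, and its other 6 arrays lay between 2.34 and 2.49. Pgk1, phosphoglycerate kinase, had 12.61 and 12.68 in wild type and 12.59 and 12.66 in Crebbp+/-. With a difference of -0.02 (SE 0.11) and an interval from -0.30 to 0.26, Pgk1 had the narrowest interval of any member, 0.559 wide.

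Tpi1, triosephosphate isomerase, had 10.63 and 10.64 in wild type and 10.75 and 10.66 in Crebbp+/-, a difference of 0.07 (SE 0.15). Pgam1, phosphoglycerate mutase, had 11.84 and 11.79 against 11.85 and 11.78, a difference of 0.003 (SE 0.12). Pkm, pyruvate kinase, had 11.72 and 11.78 against 11.57 and 11.78, a difference of -0.07 (SE 0.14). Samples of these enzymes overlapped between genotypes, apart from Tpi1, whose Crebbp+/- samples both lay above the wild-type samples.

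Of the enolases only Eno2, the neuronal form, and Eno3, the muscle form, could be read. Eno2 had 5.74 and 5.79 in wild type and 6.05 and 5.13 in Crebbp+/-, so its Crebbp+/- samples lay on either side of both wild-type samples. Eno3 had 4.95 and 5.09 in wild type and 4.66 and 5.19 in Crebbp+/-, the last value resting on 1 array at 5.66. By the 3' control probe set, Gapdh, glyceraldehyde-3-phosphate dehydrogenase, had 13.08 and 13.18 in wild type and 13.14 and 13.22 in Crebbp+/-, a difference of 0.04, whereas the middle and 5' control probe sets differed by 0.30 and 0.57. Of the 17 glycolytic enzymes, 12 were tested, 3 were higher and 9 lower in Crebbp+/-, with a median difference of -0.05, and none passed. Among all tested genes 56.9% were higher, with a median of 0.042. Of the 9 lower enzymes, Pfkm and Pfkp alone kept their direction in every alternative fit. For 8 members (Slc2a1, Aldoa, Tpi1, Pgk1, Pgam1, Pkm, Ldha and Slc16a1) the whole interval lay within 0.5 log2 units of 0.

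At the pyruvate branch, the difference between genotypes was near 0 for Ldha and negative for Ldhb, and the subunits were not tested against each other. Ldha, the subunit that favours lactate formation and a classical HIF target, had 12.11 and 12.36 in wild type and 12.15 and 12.42 in Crebbp+/-, with overlap and a difference of 0.05 (SE 0.16). Ldhb, the subunit prominent in oxidative tissues, had 9.09 and 9.63 in wild type and 8.46 and 8.80 in Crebbp+/-. Both Crebbp+/- samples of Ldhb lay below both wild-type samples. The single arrays overlapped, since those of wild type spanned 8.75 to 9.75 and those of Crebbp+/- 8.09 to 9.06.

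Ldhb had the largest difference of any tested member, -0.73 (SE 0.28), which corresponds to a signal ratio of 0.602 of Crebbp+/- to wild type. Its interval ran from -1.47 to 0.002 and its limma adjusted p was 0.991, so it did not pass. Within samples numbered 1 it differed by -0.63, and within samples numbered 2 by -0.83. It was the 1 member lower by 0.5 or more within both numbers, as were 2.13% of all tested genes. All 4 tested Ldhb probe sets were lower in Crebbp+/- within both numbers, by -0.73, -0.47, -0.41 and -0.24 on average. For the probe sets at -0.47 and -0.41, all 4 Crebbp+/- arrays lay below all 4 wild-type arrays. By brightest probe set this was the case for 1.99% of tested genes and for 0 members. No share was computed for genes read by several probe sets, which have more chances of such a separation.

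Pyruvate dehydrogenase kinases, which switch off entry of pyruvate into the mitochondria, were read as Pdk1 and Pdk3. Pdk1, a HIF target, had 11.60 and 10.62 in wild type and 11.71 and 11.08 in Crebbp+/-, a difference of 0.28 (SE 0.40) smaller than the gap between numbers. Its other tested probe sets gave 0.23, 0.04 and -0.32, the last lower in Crebbp+/- within both numbers, so its direction depended on the probe set. Pdk3 had 7.84 and 7.92 in wild type and 8.07 and 8.24 in Crebbp+/-. Both Crebbp+/- samples of Pdk3 were above both wild-type samples, by 0.27 (SE 0.23), while its arrays overlapped. Pdk2 averaged 2.59 ± 0.11 and 2.43 ± 0.01, at background.

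**Figure D2:**
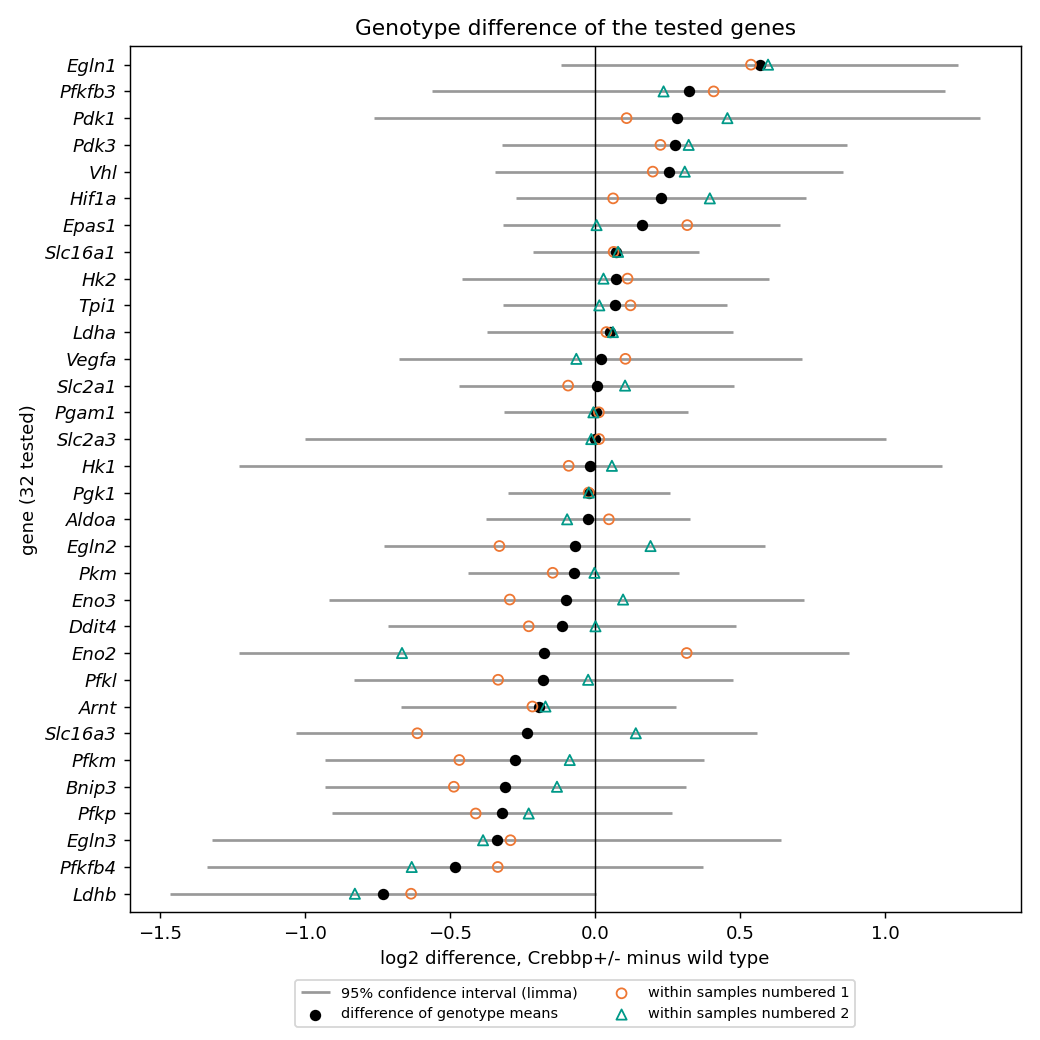
Log2 difference (horizontal axis, Crebbp+/- minus wild type) of each of the 32 tested members (vertical axis), with black points for the difference of genotype means, grey lines for its 95% limma interval, orange circles for samples numbered 1 and green triangles for samples numbered 2. Every interval holds 0, Egln1 is highest at 0.57 and Ldhb lowest at -0.73.

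Both HIF-1 subunits had high signals, and the second alpha subunit was near background. Hif1a had 11.23 and 10.81 in wild type and 11.29 and 11.21 in Crebbp+/-. The samples overlapped by a small margin, and the difference was 0.23 (SE 0.19; interval -0.27 to 0.73). All 3 tested Hif1a probe sets were higher in Crebbp+/-, by 0.23, 0.35 and 0.54. At the probe set with 0.35, samples had 10.29 and 10.20 in wild type and 10.59 and 10.61 in Crebbp+/-, and all 4 Crebbp+/- arrays lay above all 4 wild-type arrays. By brightest probe set, 3.68% of tested genes and 0 members separated in that way. A gene read by several probe sets has more chances of such a separation, and no share on that basis was computed.

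Arnt had 10.06 and 10.22 in wild type and 9.84 and 10.05 in Crebbp+/-, a difference of -0.19 (SE 0.18) with both Crebbp+/- samples lower, and 1 wild-type array, at 9.82, lay apart from the other wild-type arrays. The direction of Arnt depended on the probe set, since the mean of its tested probe sets gave 0.04 and the probe set with the largest spread gave 0.17. Epas1, which encodes HIF-2alpha, had 2.69 and 2.80 in wild type and 3.01 and 2.81 in Crebbp+/-, close to the filter of 2.72.

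Among the oxygen sensors, read by the brightest probe set, Egln1 was higher and Egln3 lower in Crebbp+/- within each sample number. Egln1, the main prolyl hydroxylase acting on HIF-1alpha under normal oxygen, had 9.004 and 8.577 in wild type and 9.54 and 9.17 in Crebbp+/-. Both Crebbp+/- samples of Egln1 lay above both wild-type samples, whereas single arrays overlapped narrowly, the highest wild-type array and the lowest Crebbp+/- array both reading 9.02. The difference was 0.57 (SE 0.26), a signal ratio of 1.48, with an interval from -0.12 to 1.25 and a limma adjusted p of 0.991.

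Within samples numbered 1 Egln1 differed by 0.54 and within samples numbered 2 by 0.60. It was the 1 member higher by 0.5 or more within both numbers, against 3.01% of all tested genes. The second Egln1 probe set had 5.35 and 5.45 in wild type and 6.02 and 6.04 in Crebbp+/-, a difference of 0.63 (SE 0.27). Its arrays of wild-type sample 2 read 5.96 and 4.95, so single arrays overlapped with a Crebbp+/- array at 5.82. Both probe sets thus gave the same direction and a similar size, and neither passed.

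Egln3, a hydroxylase that is itself induced by HIF, had 7.14 and 7.82 in wild type and 6.85 and 7.43 in Crebbp+/-, a difference of -0.34 (SE 0.38), with overlapping samples. Its second tested probe set differed by -0.32 (SE 0.35), with 0.001 within samples numbered 1 and -0.65 within samples numbered 2. Egln2 had 8.34 and 8.21 against 8.01 and 8.40, with a direction that depended on the number. Vhl had 11.14 and 10.69 in wild type and 11.34 and 10.996 in Crebbp+/-, a difference of 0.25 (SE 0.23), higher by 0.20 and 0.31 within numbers and overlapping across them. Of the 7 genes for HIF and its control, 4 were higher and 3 lower, with a median of 0.16, and none passed. Among all tested genes 56.9% were higher, with a median of 0.042.

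The 3 listed targets outside metabolism gave no common direction. Vegfa, the endothelial growth factor, had 5.12 and 5.26 in wild type and 5.22 and 5.19 in Crebbp+/-, a difference of 0.02 (SE 0.27). Bnip3, which promotes removal of mitochondria, had 8.62 and 8.63 in wild type and 8.13 and 8.50 in Crebbp+/-. Both Crebbp+/- samples of Bnip3 were lower, by -0.31 (SE 0.24) on average. Ddit4, an inhibitor of mTOR complex signalling, had 8.96 and 9.10 against 8.73 and 9.11, a difference of -0.11 (SE 0.23).

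**Figure D3:**
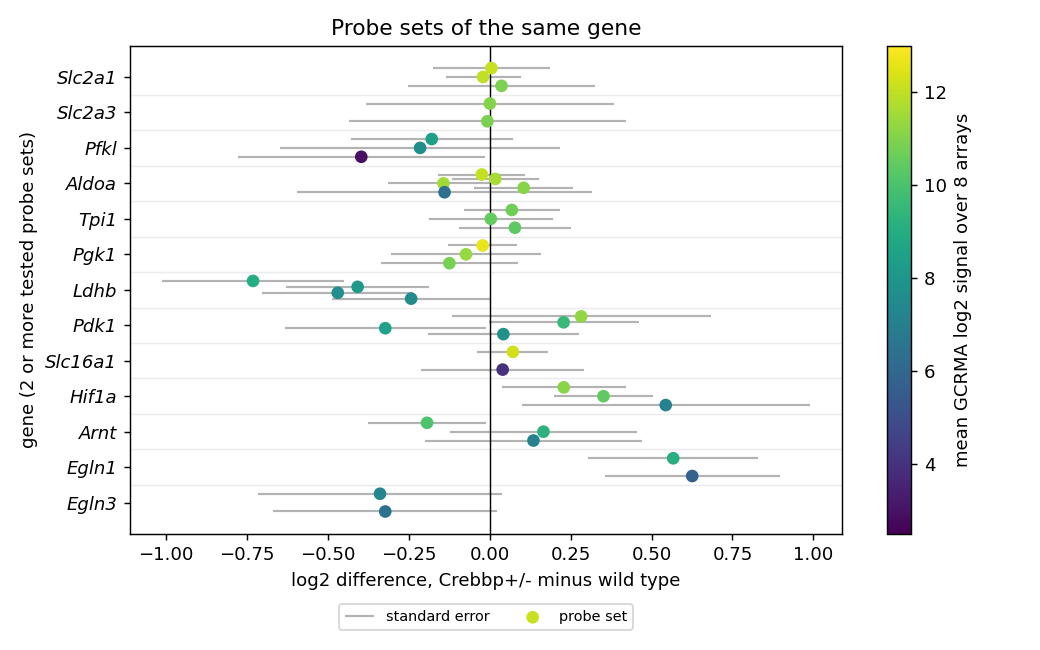
Log2 difference (horizontal axis, Crebbp+/- minus wild type) of every tested probe set of the 13 members with 2 or more, by gene (vertical axis), with standard errors as grey lines and the mean signal as colour. All 4 probe sets of Ldhb lie to the left of 0, and all 3 of Hif1a and both of Egln1 to the right.

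The promoters of 5 members are shown because Ldhb and Egln1 had the largest differences in each direction, Ldha is the isoenzyme partner of Ldhb, Hif1a encodes the factor, and Pgk1 had the narrowest interval. Sequences are RefSeq gene starts on GRCm38.p6, 250 bases before to 50 after, 5′ to 3′ on the gene's strand. Capitals mark the HIF core motif, searched as the letters ACGTG, or with a different first letter GCGTG, on both strands. On the other strand it appears as CACGT, or with a different last letter CACGC. The form CACGTG reads the same on both strands and counts on each.
Ldha, chr7:46845554-46845853, plus strand: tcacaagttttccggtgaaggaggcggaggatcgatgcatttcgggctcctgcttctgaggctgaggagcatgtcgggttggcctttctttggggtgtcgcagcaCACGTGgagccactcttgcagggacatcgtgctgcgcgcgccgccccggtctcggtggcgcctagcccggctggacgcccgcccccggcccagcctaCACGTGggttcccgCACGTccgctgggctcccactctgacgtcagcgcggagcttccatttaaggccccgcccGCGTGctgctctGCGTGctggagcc
Ldhb, chr6:142507908-142508207, minus strand: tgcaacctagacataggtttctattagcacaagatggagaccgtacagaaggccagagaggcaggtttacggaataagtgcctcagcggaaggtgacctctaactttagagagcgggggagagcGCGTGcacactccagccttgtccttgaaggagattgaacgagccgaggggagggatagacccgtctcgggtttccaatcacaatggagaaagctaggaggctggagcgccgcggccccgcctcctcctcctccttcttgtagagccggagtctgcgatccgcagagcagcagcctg
Egln1, chr8:124949205-124949504, minus strand: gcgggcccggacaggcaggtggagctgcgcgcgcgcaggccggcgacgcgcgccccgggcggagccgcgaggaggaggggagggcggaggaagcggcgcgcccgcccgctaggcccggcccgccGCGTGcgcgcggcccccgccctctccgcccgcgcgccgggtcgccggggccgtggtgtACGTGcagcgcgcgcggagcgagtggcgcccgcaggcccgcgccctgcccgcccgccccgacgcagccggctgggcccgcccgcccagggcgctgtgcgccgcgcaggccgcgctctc
Hif1a, chr12:73907617-73907916, plus strand: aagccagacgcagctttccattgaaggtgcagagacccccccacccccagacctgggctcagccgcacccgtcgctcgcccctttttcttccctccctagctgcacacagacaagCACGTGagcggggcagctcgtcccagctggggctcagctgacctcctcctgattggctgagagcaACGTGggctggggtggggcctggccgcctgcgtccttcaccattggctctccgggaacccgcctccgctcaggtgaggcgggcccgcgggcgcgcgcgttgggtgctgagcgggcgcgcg
Pgk1, chrX:106186850-106187149, plus strand: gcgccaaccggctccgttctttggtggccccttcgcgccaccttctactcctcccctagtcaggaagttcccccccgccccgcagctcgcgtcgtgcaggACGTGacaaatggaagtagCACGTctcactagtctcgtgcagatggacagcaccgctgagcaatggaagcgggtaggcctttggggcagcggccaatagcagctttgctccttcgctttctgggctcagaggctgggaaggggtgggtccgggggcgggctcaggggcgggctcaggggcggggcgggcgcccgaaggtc
The Ldha window shown held 7 matches and a second Ldha start, not shown, had 2, while the Ldhb window had 1. Windows of Egln1, Hif1a and Pgk1 held 2, 3 and 2. Of the 36 members with an entry, 32 (88.9%) had a match in at least 1 window, against 5964 of 8688 tested genes with an entry (68.6%) and 12628 of 27025 genes in the whole table (46.7%). Per window, the shares were 78.8%, 62.3% and 43.8%. A match is a stretch of letters and not a measured binding site, and no binding was measured here.

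Over the 32 tested members, differences ran from -0.73 to 0.57 with a median of -0.019, and the middle 50% of members lay between -0.18 and 0.07. All 10600 tested genes had a median of 0.042. Of the members, 15 (46.9%) were higher in Crebbp+/-, against 56.9% of all genes, and that count was 9 without array 2 of Crebbp+/- sample 1 and 18 without Crebbp+/- sample 1. In the alternatives tried, some of which could not change a direction, 13 members kept theirs and 19 changed it at least once. No member differed by 1 or more, against 1.59% of all genes. Median differences within samples numbered 1 and 2 were -0.005 and 0.003 for members and 0.021 and 0.063 for all genes.

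Both Crebbp+/- samples were above both wild-type samples for 5 members (15.6%), namely Slc16a1, Tpi1, Egln1, Pdk3 and Epas1, where 17.1% of all genes were. Both were below for 5 members (15.6%), namely Arnt, Ldhb, Bnip3, Pfkp and Pfkm, where 11% of all genes were. These shares are near those of all genes. All 32 intervals held 0, 22 lay within 1 log2 unit of 0, and widths ran up to 2.42.

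The sample number was a larger source of variation than genotype for several members. Between numbers, wild-type Slc2a3 differed by -0.77 and Crebbp+/- Slc2a3 by -0.80 (sample 2 minus sample 1), and Pdk1 by -0.98 and -0.63. Hk1 differed by 0.77 and 0.92, Egln3 by 0.67 and 0.58, and Pfkfb3 by 0.64 and 0.47. These 5 members differed by number in the same direction in both genotypes. Others did not, such as Eno2 at 0.06 in wild type and -0.93 in Crebbp+/-, and Slc16a3 at -0.43 and 0.32. The wild-type value of Slc16a3 rested on 1 array of sample 2, at 6.22 against 7.69 for the other.

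For 5 members (15.6%; Pgk1, Ldha, Pfkfb3, Egln3 and Hk1) all 4 arrays numbered 2 lay above all 4 numbered 1, as for 12.8% of all tested genes. For 3 members (9.38%; Slc2a1, Pdk1 and Slc2a3) they lay below, as for 11.4% of all genes. No member differed by 1 or more in the same direction in both genotypes, where 0.443% of all genes were higher and 1.06% lower in sample 2. The sign was shared by both genotypes for 23 of 32 members, and the share over all tested genes was not computed. Median differences between numbers were 0.061 in wild type and 0.126 in Crebbp+/-, and 0.002 and 0.039 for all genes.

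The number differences depended in part on which probe set was read. Slc2a1 probe sets gave -0.39 and -0.20, 0.04 and 0.01, and -0.64 and -0.45, in wild type and Crebbp+/-. Both Slc2a3 probe sets differed by similar amounts, the second by -0.95 and -0.81. The Gapdh 5' minus 3' differences given above were more negative in sample 2 than in sample 1 of both genotypes. Hepatocyte and immediate early signals given above were likewise higher in samples numbered 2. Their part in the number differences was not tested.

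**Figure D4:**
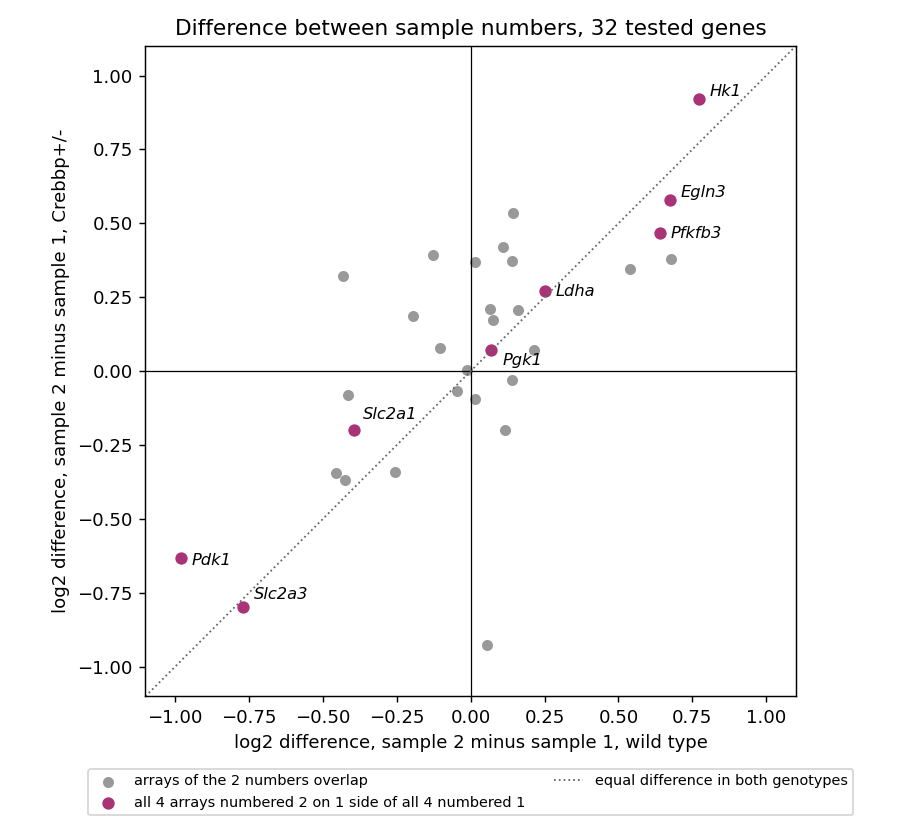
Log2 difference between sample 2 and sample 1 in wild type (horizontal axis) and in Crebbp+/- (vertical axis) for the 32 tested members, purple where all 4 arrays numbered 2 lie on the same side of all 4 numbered 1. Slc2a3 and Pdk1 lie at the lower left and Hk1 at the upper right, near the dotted line of equal differences.

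Other genes of sugar metabolism and of the hypoxia response were read in the same fit. Of 45 further sugar metabolism genes, 39 had a probe set and 26 were tested, with 0 past the adjusted threshold and 0 at an unadjusted p under 0.05 by limma. On average 20 were higher and 6 lower in Crebbp+/-, with a median of 0.068. Of all tested genes, 56.9% were higher, with a median of 0.042. The lowest p-values were those of Pgm3, which makes a precursor of protein glycosylation (0.55, SE 0.27), Dld, a subunit of pyruvate dehydrogenase (0.39, SE 0.25), and Pdp2, a phosphatase that reactivates pyruvate dehydrogenase (0.92, SE 0.60).

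Of 39 further hypoxia genes, 35 had a probe set and 30 were tested, 16 higher and 14 lower with a median of 0.034. None passed the adjusted threshold in limma, and at an unadjusted p under 0.05, 1 of 30 was higher (Car12) and 1 lower (Hif3a), where 1.39% and 1.28% of all genes were. Hif3a, an alpha subunit that can limit HIF activity, differed by -0.66 (SE 0.23). Car12, a carbonic anhydrase of the cell surface, differed by 0.87 (SE 0.31), and Ak4, a mitochondrial adenylate kinase, by 0.57 (SE 0.23). The limma adjusted p of each of the 3 was 0.991.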

How the data were processed

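Sorted fetal liver stem cells of both genotypes were measured on 8 arrays. The deposited values are log2 signals made with GCRMA per the submitters' processing notes, with version and settings not given in the sources used here. Scanner files were not used here. The table held 45101 probe sets, 64 of them controls. Of the other 45037, 34945 had 1 gene symbol, 932 several and 9160 none listed, by the platform annotation, and 34741 identifiers matched the GRCm38.p6 gene table.

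The 2 arrays of a sample were averaged (n = 2 samples per genotype). The sample means entered limma 3.58.1 under R 4.3.3 (lmFit, eBayes with intensity trend; 2 residual and 4.75 total degrees of freedom) on the 22518 noncontrol probe sets with a mean above the median of 2.72, and p-values were adjusted over all of them by Benjamini-Hochberg. An exact two-sided permutation test of 2 against 2 cannot go below 0.33 and was not used. The fit was run on simulated data with shifts larger than the difference of any tested member. That run therefore says nothing of detection at the sizes seen here.

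Members and lists were chosen with earlier results of these data known. Members were described by name, with more detail for those differing by at least 0.5 within both sample numbers. Of 78 member probe sets, 58 were tested. Alternatives covered replication, blocking, filters, normalization, a floor, the variance trend, choice of probe set and omission of each sample and array. A planned comparison of isoenzyme protein sequences was not run. The number of arrays limits the precision.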

Additional observations from a re-analysis of the deposited data

Results flagged for a closer look

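Among 66 checks of the 4 arrays of a genotype, 2 single arrays stood apart by Dixon's criterion. Chance alone marks about 1 in 20 such checks, and the arrays of a sample are repeats. For Eno3, array 2 of Crebbp+/- sample 2 had a log2 signal of 5.66 while the other 3 Crebbp+/- arrays had 4.59 to 4.73. For Arnt, array 1 of wild-type sample 1 had 9.82 while the other 3 wild-type arrays had 10.22 to 10.29.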

How the results depend on the processing

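Over 24 alternatives, no member passed the limma adjusted test. With all 8 arrays as independent samples, 1 probe set passed (adjusted p = 0.0411) and 2 members, Ldhb and Egln1, had an unadjusted p under 0.05. With a replicate block for the sample number, 0 probe sets passed and 4 members (Ldhb, Pdk1, Vhl and Egln1) had an unadjusted p under 0.05, with limma adjusted p of 0.147 for Ldhb, 0.160 for Egln1, 0.259 for Vhl and 0.283 for Pdk1. The share of all tested genes at that unadjusted threshold was computed for the main fit only. The member counts of the alternatives therefore cannot be read as an excess. The labels give the 2 pairs only a shared number. Deviations of same-numbered samples correlated at 0.554 across tested probe sets and 0.708 across members. Arrays correlated at a median of 0.974 within a number across genotypes and 0.968 within a genotype across numbers. The Gapdh 5' minus 3' difference also moved the same way with the number in both genotypes. Pairing and such a shared difference cannot be told apart here. That unadjusted count was 1 with no filter (Aldoc), with the upper 25% of probe sets, quantile normalization, a floor at the filter, or without probe sets ending in _x_at or _s_at (Ldhb each time; the last chosen after seeing the data), and after averaging all probe sets of a gene (Egln1). It was 0 to 1 when a sample or array was left out. A sample left alone in its genotype was assumed to vary like the others.

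The count of members higher in Crebbp+/- was 9 to 18 when a sample or array was left out, the 9 without array 2 of Crebbp+/- sample 1, and 12 of 32 under quantile normalization. The wild-type median difference between sample numbers was 0.146 after re-centring the arrays. The median genotype difference stayed between -0.068 and 0.021. In all alternatives run, 7 members were higher (Pfkfb3, Tpi1, Pdk3, Hif1a, Epas1, Vhl and Egln1) and 6 lower (Pfkm, Pfkp, Pfkfb4, Ldhb, Egln3 and Bnip3) in Crebbp+/-, while 19 changed sign in at least 1. Alternatives that changed only the fit left every difference as it was and could not change a direction. At their nearest to 0, Pfkfb3 was at 0.002, Tpi1 at 0.003, Egln3 at -0.003, Hif1a at 0.021, Vhl at 0.026 and Pfkm at -0.039. The share of all tested genes that kept their direction was not computed. Ldhb ranged from -1.001 to -0.463 and Egln1 from 0.35 to 0.78. The cause of these changes was not tested.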
